A study of Homo sapiens with 6 samples.

Results

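The cyclin-dependent kinases (CDKs) that act on RNA polymerase II, other than *CDK9*, were examined with their partners in LNCaP prostate cancer cells. The 9 genes were listed by function and found by symbol in the gene column of the table: *CDK7*, *CCNH* and *MNAT1* of the general transcription factor TFIIH, *CDK8*, *CDK19* and *CCNC* of the Mediator complex, and *CDK12*, *CDK13* and *CCNK*, which act during elongation. All 9 were among the 29744 genes of the table, and all 9 passed the filter of a mean of at least 0.5 CPM (the reads of a gene, scaled so that every sample has the same total) that left 13373 genes for testing. LNCaP is an androgen-sensitive line, derived from a lymph node metastasis, that carries a mutated androgen receptor. Cells in RPMI-1640 with fetal bovine serum received 250 nM CDKI-73, an inhibitor of *CDK9*, or DMSO as vehicle for 4 h. There were 3 biological replicates per group, and polyadenylated RNA was sequenced. The authors report that in kinase assays CDKI-73 also acts on CDK7, CDK1 and CDK2, less strongly than on CDK9. In LNCaP cells treated for longer than 4 h, they also report loss of an RNA polymerase II phosphorylation that they read as CDK7 activity. CDKI-73 also stands in the titles of the 3 DMSO samples, whose treatment label gives DMSO as vehicle. Every direction below rests on that label.

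RNA polymerase II is steered through the transcription cycle by phosphorylation of the repeated C-terminal domain (CTD) of its largest subunit. CDK7, with cyclin H (*CCNH*) and the assembly factor MAT1 (*MNAT1*), forms the CDK-activating kinase (CAK), which phosphorylates the CTD as part of TFIIH and also activates the cell cycle CDKs. CDK8 or its paralog CDK19, with cyclin C (*CCNC*), forms the kinase of the Mediator complex, which links transcription factors to the polymerase. CDK12 and CDK13 each pair with cyclin K (*CCNK*) and phosphorylate the CTD during elongation. CDK12 is best known for keeping long DNA repair genes expressed, and the *CDK12* gene is inactivated in a subset of prostate cancers.

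Luminal prostate markers were abundant. *KLK3*, which encodes prostate-specific antigen, had 2974, 2865 and 3336 CPM in CDKI-73 samples, against 2787, 2518 and 2480 CPM in DMSO samples. *KRT8*, a luminal keratin, had 266.3, 254.5 and 272.6 CPM in CDKI-73 samples, against 201.7, 203.3 and 209.5 CPM in DMSO samples. Of 13 basal, stromal, immune and endothelial markers, 8 were at or below 0.04 CPM in every sample. The 13 summed to 34.1 to 37.7 CPM in CDKI-73 samples and to 27.4 to 29.0 CPM in DMSO samples, and their part in the results was not tested. CDKI-73 replicate 3 stood apart, with a median absolute log2 difference of 0.148 and 0.159 from the other CDKI-73 samples, which differed from each other by 0.065. DMSO samples differed by 0.061 to 0.093. The step between low CPM values implied 46.1 to 52.0 M counted reads in CDKI-73 samples and 52.9 to 60.9 M in DMSO samples.

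Of the 9 genes, the kinase genes *CDK7*, *CDK13* and *CDK8* showed the largest falls with CDKI-73, to 21.6%, 29.1% and 32.2% of their DMSO level. Their cyclins stayed nearer to the DMSO level. *CCNH* did not pass the test, *CCNC* was 1.107 times its DMSO level, and *CCNK* stood at 75.7% of it. With limma on log2(CPM + 0.1), 7 of the 9 genes were lower at a Benjamini-Hochberg adjusted p of 0.05 or less, where 48.2% of all tested genes were lower. 1 gene (*CCNC*) was higher, where 24.2% of tested genes were. At a change of at least 2-fold, 3 genes were called lower, against a background of 22.3%, and 0 were called higher, against 1.11%. The CDKI-73 samples all lay below the DMSO samples for 7 genes, which held for 50.0% of tested genes, and all lay above them for 1 gene, which held for 25.9%. The median log2 fold change was −0.41 over the 9 genes and −0.18 over all tested genes. In bulk RNA, fewer cells expressing a gene and less of its RNA per cell cannot be told apart. CPM are shares of a sample's total, so a change in the total RNA does not show in them.

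**Figure D1:**
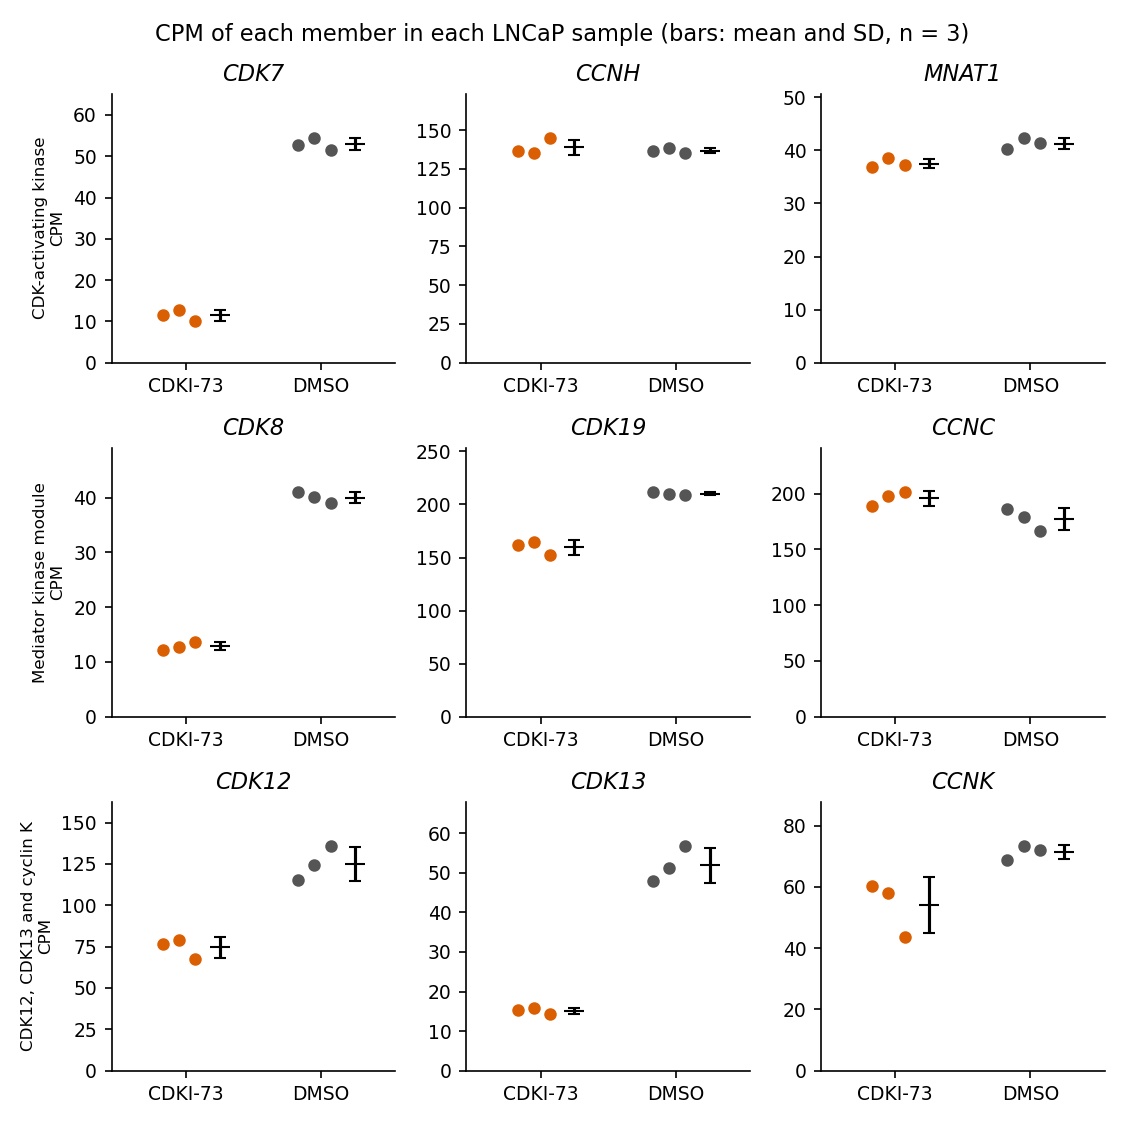
CPM of each of the 9 genes in every sample, with CDKI-73 samples left of DMSO samples; points are the 3 replicates of a group and bars show the mean and SD. *CDK7* lay between 10.03 and 12.76 CPM in CDKI-73 samples and between 51.42 and 54.33 CPM in DMSO samples, whereas *CCNH* overlapped between the groups.

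The DNA just upstream of *CDK7*, *CDK8* and *CDK13* is shown because these were the genes called lower, and that of *CDK12* because it is the paralog of *CDK13* and kept more of its DMSO level. Each sequence runs 5′ to 3′ and ends before the first annotated transcript start (RefSeq promoter windows of GRCh38.p14, the same assembly as hg38). Capitals mark the GC box GGGCGG, the E-box CACGTG and the TCTCGCGA element, each on either strand.
CDK7 (chr5:69234636-69234794, plus strand): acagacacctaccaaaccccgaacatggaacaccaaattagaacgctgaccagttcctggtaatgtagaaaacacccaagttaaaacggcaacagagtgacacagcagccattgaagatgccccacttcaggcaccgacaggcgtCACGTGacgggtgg
CDK8 (chr13:26253879-26254103, plus strand): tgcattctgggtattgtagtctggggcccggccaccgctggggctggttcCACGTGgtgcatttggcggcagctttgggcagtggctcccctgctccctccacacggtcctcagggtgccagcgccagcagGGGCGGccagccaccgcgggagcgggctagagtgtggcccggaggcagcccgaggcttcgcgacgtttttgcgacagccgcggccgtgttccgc
CDK12 (chr17:39461236-39461485, plus strand): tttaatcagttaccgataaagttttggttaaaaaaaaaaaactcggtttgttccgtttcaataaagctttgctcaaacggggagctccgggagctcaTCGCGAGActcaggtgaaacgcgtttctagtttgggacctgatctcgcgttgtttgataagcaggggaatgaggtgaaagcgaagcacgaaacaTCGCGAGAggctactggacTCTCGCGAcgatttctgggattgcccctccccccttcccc
CDK13 (chr7:39950006-39950120, plus strand): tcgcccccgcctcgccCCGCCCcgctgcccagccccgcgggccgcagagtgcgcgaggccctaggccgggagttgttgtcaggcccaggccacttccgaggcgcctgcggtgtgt
The full windows of 300 bases around the start were searched on both strands for 9 motifs, a list chosen after the sequences were seen. The E-box was found in the windows of *CDK7* and *CDK8*, and in 7.26% of 35116 promoter windows. The GC box was found for *CDK7*, *CCNH*, *CDK8*, *CDK19*, *CDK13* and *CCNK*, and in 45.0% of all windows. For *CDK7* it lay beyond the stretch printed. The TCTCGCGA element was found for *CDK12*, at 3 places, and for *CCNC*, and in 1.15% of all windows. *CCNK* also held CCAAT (34.6% of windows) and the YY1 motif AAGATGGC (2.89%). TATAAA (11.5%), the ETS motif CCGGAAG (10.3%), the CRE TGACGTCA (1.85%) and the NRF1 motif (1.24%) were in none of the 9 windows. A match describes the letters of a window and not a bound site.

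Among the CAK genes, the kinase subunit alone showed a large fall. *CDK7* lies on chromosome 5 (hg38 coordinates 69234795 to 69277430, plus strand), with 12 exons in its reference transcript. It had 11.51, 12.76 and 10.03 CPM in CDKI-73 samples, against 52.84, 54.33 and 51.42 CPM in DMSO samples. The groups were far apart, and about 462 to 662 reads stood behind each CDKI-73 value. The means were 11.4 ± 1.37 and 52.9 ± 1.46 CPM (SD, n = 3 each), a 4.62-fold fall (log2 fold change −2.21, SE 0.087, adjusted p = 1.46e-07, limma). Of all tested genes, 6.58% had a lower log2 fold change.

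*CCNH*, the cyclin that CDK7 needs for activity, lies on chromosome 5 (87311471 to 87412930, minus strand). It had 136.41, 135.60 and 144.73 CPM in CDKI-73 samples, against 136.38, 138.56 and 135.37 CPM in DMSO samples. The groups overlapped, and the log2 fold change was 0.02 (95% interval −0.08 to 0.12, adjusted p = 0.665, limma). It passed the test as higher with the median of gene ratios (0.22, adjusted p = 0.00251, limma), a trimmed mean (0.25, adjusted p = 0.00117) and the upper quartile (0.30, adjusted p = 0.000372), and as lower when scaled to reference genes (−0.39, adjusted p = 0.000114). *MNAT1*, which holds the kinase and cyclin together, lies on chromosome 14 (60734761 to 60969965, plus strand). It had 36.83, 38.52 and 37.19 CPM in CDKI-73 samples, against 40.26, 42.27 and 41.38 CPM in DMSO samples. All 3 CDKI-73 samples were below all DMSO samples, but by little (log2 fold change −0.14, SE 0.048, adjusted p = 0.0291, limma), and the sign turned under 3 other scalings described below. With the upper quartile *MNAT1* passed the test as higher (0.14, adjusted p = 0.0239, limma). In CPM, the call as lower was lost without CDKI-73 replicate 1 (adjusted p = 0.0974, limma), without DMSO replicate 2 (0.118) and without DMSO replicate 3 (0.0757).

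The Mediator kinases are paralogs, and both fell. *CDK8* lies on chromosome 13 (26254129 to 26405238, plus strand). It had 12.18, 12.76 and 13.69 CPM in CDKI-73 samples, against 40.94, 40.03 and 38.94 CPM in DMSO samples. The groups did not overlap, and the fall was 3.10-fold (log2 fold change −1.63, SE 0.062, adjusted p = 1.22e-07, limma). *CDK19* lies on chromosome 6 (110609978 to 110815855, minus strand). It had 161.54, 165.03 and 151.92 CPM in CDKI-73 samples, against 211.40, 210.32 and 209.09 CPM in DMSO samples. Here too the CDKI-73 samples were all lower, but the level stayed at 75.9% of DMSO (log2 fold change −0.40, SE 0.045, adjusted p = 6.56e-05, limma).

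*CCNC*, the cyclin shared by both Mediator kinases, lies on chromosome 6 (99542387 to 99568814, minus strand). It had 188.47, 197.94 and 201.11 CPM in CDKI-73 samples, against 185.79, 178.64 and 166.30 CPM in DMSO samples. The CDKI-73 samples were all higher, by a small margin (log2 fold change 0.15, SE 0.053, adjusted p = 0.0348, limma). When samples were scaled to reference genes the sign turned, and *CCNC* passed the test as lower (−0.26, adjusted p = 0.00369, limma). In CPM, the call as higher was lost without CDKI-73 replicate 2 (adjusted p = 0.0878, limma), without DMSO replicate 2 (0.0789) and without DMSO replicate 3 (0.124).

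All 3 genes of the CDK12 and CDK13 complexes fell in CPM, and the call of *CCNK* was lost under 3 other scalings. *CDK12* lies on chromosome 17 (39461486 to 39567559, plus strand). It had 76.86, 79.19 and 67.33 CPM in CDKI-73 samples, against 115.16, 124.40 and 135.60 CPM in DMSO samples, with no overlap. The level was 59.5% of DMSO (log2 fold change −0.75, SE 0.080, adjusted p = 4.95e-05, limma). *CDK13* lies on chromosome 7 (39950256 to 40099580, plus strand). It had 15.22, 15.80 and 14.32 CPM in CDKI-73 samples, against 47.81, 51.15 and 56.68 CPM in DMSO samples. The CDKI-73 samples were tightly grouped and all well below DMSO, a 3.43-fold fall (log2 fold change −1.77, SE 0.075, adjusted p = 1.98e-07, limma).

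*CCNK*, the cyclin of both kinases, lies on chromosome 14 (99481409 to 99512440, plus strand). It had 60.35, 58.18 and 43.70 CPM in CDKI-73 samples, against 68.97, 73.27 and 72.06 CPM in DMSO samples. CDKI-73 replicate 3 was the lowest. The log2 fold change was −0.41 (SE 0.11, adjusted p = 0.0104, limma) and −0.27 (adjusted p = 0.00022) without that replicate. It did not pass with the median of gene ratios (−0.21, adjusted p = 0.0989, limma), a trimmed mean (−0.18, adjusted p = 0.15) or the upper quartile (−0.14, adjusted p = 0.267). Exons of *CCDC85C* on the opposite strand overlap 84.8% of the *CCNK* reference transcript. *CCDC85C* had 56.46, 59.76 and 54.83 CPM in CDKI-73 samples, against 107.18, 102.62 and 103.88 CPM in DMSO samples. Whether the counting used strand is not given in the sources used here, so reads of the 2 genes cannot be told apart. Overlaps with annotated exons were smaller for *CCNH* (19.8%), *CCNC* (15.8%) and *MNAT1* (4.61%), and none were found for the other 5 genes. Of the 75-base stretches of the *CDK7* reference transcript, 1.63% also occur in the pseudogene *CDK7P1*.

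The genes of a complex were next compared within each sample, as log2 ratios of their CPM + 0.1. Apart from the added 0.1 CPM, these ratios do not depend on how samples are scaled. In all 9 pairs tested the 3 CDKI-73 samples lay apart from the 3 DMSO samples. Among single genes such a separation was common, with 50.0% of tested genes all below and 25.9% all above. The share among other pairs of genes was not computed, and the 9 pairs share genes, so this count does not set them apart. Each exact two-sided permutation test gave p = 0.1 (0.1 after Benjamini-Hochberg adjustment), the smallest that 3 against 3 samples allow, so no pair could pass 0.05. Between the paralogs, log2 *CDK12* over *CDK13* averaged 2.29 ± 0.057 in CDKI-73 samples and 1.27 ± 0.012 in DMSO samples (SD, n = 3 each), a difference of 1.02 (SE 0.034). The ratio was thus 2.03-fold higher with CDKI-73. Log2 *CDK8* over *CDK19* averaged −3.62 in CDKI-73 samples and −2.39 in DMSO samples, a difference of −1.23 (SE 0.082).

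The ratio of kinase to cyclin was lower in every CDKI-73 sample for all 5 kinases, without a share of other gene pairs to set this against. Log2 *CDK7* over *CCNH* averaged −3.60 in CDKI-73 samples and −1.37 in DMSO samples, a difference of −2.23 (SE 0.13). Against *MNAT1*, *CDK7* differed by −2.07 (SE 0.090), whereas *CCNH* over *MNAT1* differed by 0.16 (SE 0.045). *CDK8* over *CCNC* differed by −1.78 (SE 0.036) and *CDK19* over *CCNC* by −0.55 (SE 0.070). Log2 *CDK19* over *CCNC* was −0.30 in CDKI-73 samples and 0.25 in DMSO samples, so its sign differed between the groups. *CDK13* over *CCNK* differed by −1.36 (SE 0.13) and *CDK12* over *CCNK* by −0.33 (SE 0.097).

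**Figure D2:**
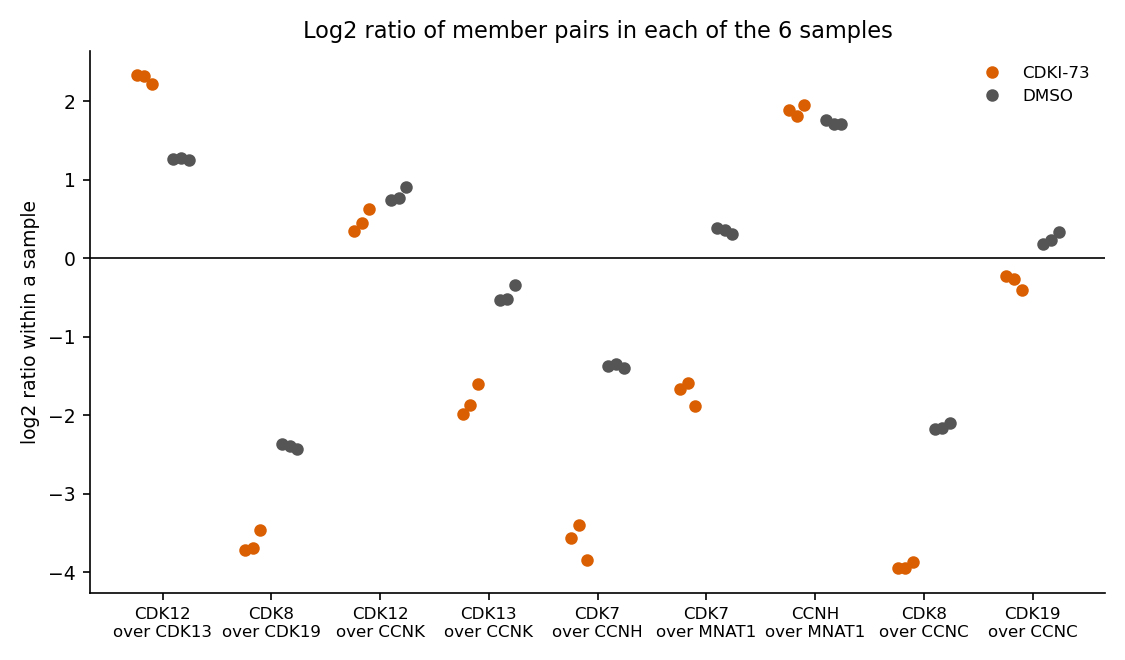
Log2 ratio of the CPM of 2 genes within each sample, for the 9 pairs, with CDKI-73 samples left of DMSO samples; points are the 3 replicates of a group. The groups lay apart in every pair, with mean differences between −2.23 (*CDK7* over *CCNH*) and 1.02 (*CDK12* over *CDK13*). How often other gene pairs lie apart was not computed.

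Levels were set beside each other as CPM per kilobase of the reference transcript. In CDKI-73 samples the order was *CCNH* (108.5), *CCNC* (91.0), *CDK19* (24.9), *CCNK* (15.4), *MNAT1* (14.2), *CDK12* (8.99), *CDK7* (8.02), *CDK8* (4.20) and *CDK13* (1.59). In DMSO samples it was *CCNH* (106.9), *CCNC* (82.2), *CDK7* (37.1), *CDK19* (32.9), *CCNK* (20.3), *MNAT1* (15.6), *CDK12* (15.1), *CDK8* (13.04) and *CDK13* (5.45). By this measure the cyclins of CDK7 and of the Mediator kinases were the most abundant in both groups, and *CDK13* the least. The order rests on the length of the reference transcript, and which transcripts these cells express was not examined. The value of *CCNK* may include reads of *CCDC85C*. Neighbours whose samples overlapped were *CCNK* with *MNAT1* and *CDK12* with *CDK7* in CDKI-73 samples, and *MNAT1* with *CDK12* in DMSO samples.

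Because CPM are shares of a library, the fold changes were also computed after scaling. Over all genes tested, the median log2 fold change moved up by 0.20 with the median of gene ratios, by 0.23 with a trimmed mean of log ratios and by 0.27 with the upper quartile. It moved down by 0.40 when samples were scaled to *GAPDH*, *HPRT1* and *ACTB*, which were themselves higher in CPM with CDKI-73 by 0.55, 0.32 and 0.36 on the log2 scale. The lower and higher counts over all genes, 6441 and 3242 in CPM, became 5279 and 5122, 5126 and 5419, 4904 and 5760, and 9882 and 395 under these scalings in turn. *CDK7*, *CDK8*, *CDK13*, *CDK12*, *CDK19* and *CCNK* kept negative values under all of them. Values between −0.27 and 0.40 can take the other sign under at least 1 scaling, as those of *CCNH*, *MNAT1* and *CCNC* did, and the same limit holds for partner genes in that range.

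**Figure D3:**
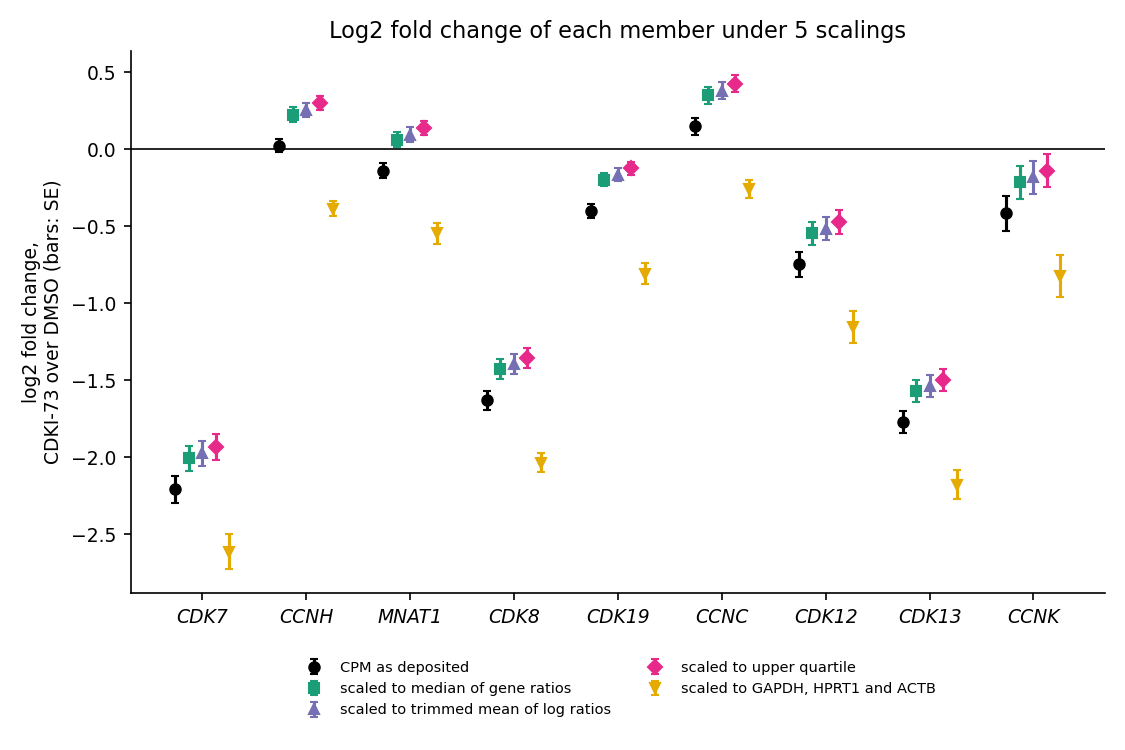
Log2 fold change (CDKI-73 over DMSO) of the 9 genes in CPM as deposited and under 4 other scalings, with bars for the standard error. *CDK7* stayed between −2.61 and −1.93, while *MNAT1* lay above 0 under the median, trimmed mean and upper quartile scalings and *CCNC* lay below 0 under reference gene scaling.

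The counts of partner genes below stand against 48.2% of all tested genes lower, 24.2% higher and 22.3% called lower at 2-fold or more, and a median log2 fold change of −0.18. Of the 7 TFIIH core genes, 3 fell, 2 rose and 2 did not pass the test (median −0.12), shares near those of all tested genes. *GTF2H1*, a scaffold subunit, was at −0.47 (adjusted p = 3.31e-05, limma) and *GTF2H2* at −0.43 (adjusted p = 0.000891), and *GTF2H2* has near-identical copies that may split its reads. The helicase genes *ERCC3* and *ERCC2* were at −0.24 and 0.24, both within the range that can change sign with scaling. Of the 4 other subunits of the Mediator kinase module, 2 fell and 2 did not pass. *MED13*, which tethers the module to Mediator, had 39.99, 44.42 and 31.68 CPM in CDKI-73 samples, against 109.48, 109.81 and 113.30 CPM in DMSO samples. Its log2 fold change was −1.53 (SE 0.11, adjusted p = 4.11e-06, limma), and that of its paralog *MED13L* −0.65 (adjusted p = 0.000593). *MED12* (0.23) and *MED12L* (−0.19) did not pass the test.

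The genes of P-TEFb, the elongation kinase that CDKI-73 targets, all fell. *CDK9* itself had 27.92, 28.29 and 21.96 CPM in CDKI-73 samples, against 46.14, 46.20 and 48.06 CPM in DMSO samples (log2 fold change −0.85, adjusted p = 6.86e-05, limma). Its cyclins *CCNT1* and *CCNT2* were at −2.19 (SE 0.36) and −1.92 (SE 0.13), so here the cyclins fell more than the kinase in the point estimates, a difference that was not tested. Of 7 further CDK and cyclin genes listed, 6 were tested, of which 4 rose and 1 (*CCNL1*, −0.49) fell. *CDK11A* was at 0.85 (adjusted p = 1.3e-05, limma), *CDK11B* at 0.38 and *CCNL2* at 0.26, the last 2 within the range that can change sign with scaling. *CDK11A* and *CDK11B* are near-identical copies, so their separate values are uncertain.

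Substrates of these kinases and the opposing phosphatases were also listed. *POLR2A*, whose product carries the CTD, had 115.78, 117.81 and 90.46 CPM in CDKI-73 samples, against 96.45, 104.58 and 129.27 CPM in DMSO samples, with overlap (log2 fold change −0.03, adjusted p = 0.862, limma). Of 9 phosphatase genes, most of them acting on the CTD, 7 fell and 2 rose (median −0.72), where 48.2% of all tested genes were lower and 24.2% higher. No test compared the list with other genes. *CTDP1*, which recycles the polymerase, was at −2.22 (adjusted p = 9.71e-08, limma), *CTDSP2* at −1.27, *CTDSP1* at −1.24 and *RPAP2* at −1.02. Of the 4 cell cycle kinases that CAK activates, *CDK1* fell (−0.20, adjusted p = 0.00631), *CDK4* was at 0.18 (adjusted p = 0.0499), and *CDK2* (0.05) and *CDK6* (−0.27) did not pass the test, all 4 within the range that can change sign with scaling.

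Of 12 DNA damage response genes linked to CDK12, 9 fell and 3 did not pass the test (median −0.49), and 4 were called lower at 2-fold or more, where 48.2% of all tested genes were lower and 22.3% called lower. No test compared the list with other genes. *PALB2*, the partner of *BRCA2* in homologous recombination, had 1.96, 2.06 and 1.26 CPM in CDKI-73 samples, against 21.22, 23.07 and 22.09 CPM in DMSO samples. Its log2 fold change of −3.61 (SE 0.17, adjusted p = 3.22e-07, limma) was the lowest of the list. The helicase gene *BLM* was at −1.73, the telomere factor *TERF2* at −1.35 and *BRCA2* at −1.28. *ATM* (0.22), *FANCI* (−0.03) and *FANCD2* (0.00030) did not pass. Over all 46 partner and pathway genes tested, 26 fell, 9 rose and 11 were called lower at 2-fold or more, shares near the 48.2%, 24.2% and 22.3% of all tested genes.

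The genes whose profiles over the 6 samples lay nearest to those of 3 kinases were found by Euclidean distance between log2 values centred on the DMSO mean, among 8922 genes of at least 10 CPM. Nearest to *CDK7* were *SENP2*, *RUNDC1* and *ZBTB21* (distances 0.104, 0.113 and 0.118). Nearest to *CDK8* were *ZNF559*, *BCL7B* and *AJUBA* (0.0839, 0.117 and 0.125), and nearest to *CDK12* were *PHIP*, *SIPA1L3* and *PRPF3* (0.0506, 0.0629 and 0.0738). These distances are descriptions of 6 samples and carry no test.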

How the data were processed

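PolyA+ stranded single-end RNA-seq of LNCaP cells was analysed in 6 samples, grouped by their treatment label. The deposited table holds CPM per gene, written with 2 decimals. The authors had aligned the reads to hg38 by STAR. The submitters' processing notes also name FastQC, edgeR 3.3 and R 3.2.3. No TMM factor is in the values. The annotation and whether counting used strand are not stated. Depth was inferred from the step of the CPM values (0.01641 to 0.0217 CPM per read), and because of the rounding no count test was run.

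limma 3.58.1 (R 4.3.3, intensity trend, no block or covariate) was run on log2(CPM + 0.1) for genes averaging at least 0.5 CPM, with Benjamini-Hochberg adjustment over all 13373 genes. The fold changes are on this log2 scale, which understates the change of low genes. The limma p-values set a difference between groups against the spread between these replicates, moderated over all tested genes. Code was tested on simulated data. Pairs of genes were compared by exact permutation. 17 alternatives were tried. Positions and promoters come from RefSeq GRCh38.p14, overlaps from GENCODE annotation.

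The members and lists were chosen with earlier results of these data known. Named genes are all members, of each list up to 4 genes that passed the adjusted p and changed most, lists of 4 or fewer in full, the 3 nearest profiles of 3 kinases and 3 reference genes. *ATM*, *FANCI*, *FANCD2*, *KLK3*, *KRT8* and *CCDC85C* were named after their values were seen. 1 luminal marker is not reported here. Sequenced reads were not analysed here.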

Additional observations from a re-analysis of the deposited data

How the results depend on the processing

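Of the 153 values of the 9 genes under 17 alternatives, 131 kept their direction and side of the threshold, 13 lost the call, 3 gained it (*CCNH*, as higher, with the median of ratios, trimmed mean and upper quartile) and 6 turned sign. The genes lower at the adjusted p, 7 in CPM, numbered 5 with the median of ratios, trimmed mean and upper quartile, and 9 with reference genes. Partner and pathway genes lower, 26 in CPM, numbered 22, 22, 20 and 38 under these scalings in turn. The counts over all genes moved as well, as given above. The genes called lower at 2-fold or more numbered 3 under every alternative except reference gene scaling, where they numbered 4. The sign turned for *CCNH* under reference gene scaling (−0.39) and without CDKI-73 replicate 3 (−0.0080, within a range of −0.0080 to 0.039 over the samples left out). It turned for *MNAT1* with the median of gene ratios (0.063), the trimmed mean (0.094) and the upper quartile (0.14), and for *CCNC* with reference genes (−0.26). With reference genes, *CCNH* (adjusted p = 0.000114, limma) and *CCNC* (0.00369) passed as lower. With the upper quartile, *MNAT1* passed as higher (adjusted p = 0.0239, limma). The call of *MNAT1* was also lost without CDKI-73 replicate 1, DMSO replicate 2 or DMSO replicate 3.

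The count of higher genes among the 9 (1 in CPM) was 0 with no filter, without the limma trend, with a replicate block and with reference genes, 2 with the median of ratios and the trimmed mean, 3 with the upper quartile, and 0 to 1 over the samples left out. That of partner and pathway genes (9) was 14, 15 and 16 with the median, trimmed mean and upper quartile, 1 with reference genes, and 5 to 9 over the samples left out. With a pseudocount of 1 CPM the difference in log2 *CDK12* over *CDK13* was 0.97 and that of *CDK8* over *CCNC* −1.71.

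The labels give replicate numbers but do not say whether they pair the samples. Deviations of same-numbered samples correlated at −0.54, 0.30 and −0.39 over 8931 genes. These values cannot decide the pairing, because the deviations of the 3 samples of a group offset each other. With the number as a replicate block, 6 of the 9 genes were lower in place of 7, and *MNAT1* (adjusted p = 0.0727, limma) and *CCNC* (adjusted p = 0.092, limma) did not pass. Counting error was at most 4.65% of any value of the 9 genes, and the 3 replicates per group limit the precision of the small differences.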
